A study of Mus musculus with 378 samples.

Results

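The replication-dependent histone genes were taken as every row whose symbol starts with Hist1h, Hist2h, Hist3h or Hist4h, which gave 47 of the 22180 genes in the table. They comprised 6 H1, 7 H2A, 16 H2B, 7 H3 and 11 H4 genes. The H2B rows included 2 named Hist2h2bb and Hist3h2bb-ps, a pseudogene by its symbol, which did not pass the filter on low counts. In all, 32 members passed the filter on low counts and entered the tests, and 15 did not. RNA came from islets of Diversity Outbred mice, a stock whose animals each carry their own mosaic of founder strain genomes, all kept on a diet high in fat and sugar (45% fat), and poly(A) RNA was captured with oligo-dT beads. Each library was 1 mouse with its own number, and sex was read from the letter F or M of the title. No age or batch is given, so the mouse numbers were divided into 4 bands of 100 starting at number 21. Band 4 held 47 females and 47 males. Band 1 held 46 females and 45 males, band 2 held 46 females and 48 males, and band 3 held 49 females and 50 males. The labels give bands no meaning. The 10 beta cell markers, Ins1 and Ins2 among them, summed to 88100.4 to 222725 CPM (counts scaled to a common library total) in females and 90193 to 290219 CPM in males. Within each band the females, but for 1, had lower numbers than the males, so sex and order within a band cannot be told apart. P-values measure the spread between mice.

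Replication-dependent histones are the bulk of chromatin: 4 core proteins (H2A, H2B, H3 and H4) form the nucleosome, and H1 binds the linker DNA between nucleosomes. Their genes lie in clusters, mostly lack introns and are transcribed together as cells copy their DNA. Their mRNA usually ends not in a poly(A) tail but just behind a short stem-loop, which the stem-loop binding protein SLBP holds, and is lost quickly once replication stops. Some of the genes also yield polyadenylated mRNA, above all in cells that no longer divide. In adult islets few cells divide, and oligo-dT capture is blind to mRNA without a tail, so these libraries are not a measure of total histone mRNA.

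The members lay in 4 clusters. Hist1 on chromosome 13 held 34 members (21 tested), Hist2 on chromosome 3 held 9 (8 tested), Hist3 on chromosome 11 held 3 (2 tested), and Hist4 on chromosome 6 held 1, which was tested. The stem-loop was searched on the transcript strand in GENCODE mouse release M21 transcripts (GRCm38), which existed for 46 members. It was present in 33 of them, against 51 of all 55450 genes (0.092%). In the other 13 no such letters were found. The sequences below are those of members with high levels or with a result, and 1 member of each further variant, with 5 bases on either side of the 16-base stem-loop, which is in capitals.
Hist1h1c, chr13:23739507-23739532, plus strand: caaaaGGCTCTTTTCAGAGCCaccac
Hist1h1e, chr13:23621777-23621802, minus strand: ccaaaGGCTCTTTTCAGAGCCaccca
Hist1h2be, chr13:23585526-23585551, minus strand: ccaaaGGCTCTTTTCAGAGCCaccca
Hist2h2aa2, chr3:96239779-96239804, minus strand: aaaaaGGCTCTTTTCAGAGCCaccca
Hist3h2a, chr11:58955167-58955192, plus strand: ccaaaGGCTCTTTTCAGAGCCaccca
Hist1h2bb, chr13:23747198-23747223, plus strand: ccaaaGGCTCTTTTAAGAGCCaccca
Hist2h2ac, chr3:96220413-96220438, minus strand: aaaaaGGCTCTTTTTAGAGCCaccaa
Hist1h4h, chr13:23531453-23531478, plus strand: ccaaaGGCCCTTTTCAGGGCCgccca
Hist1h4i, chr13:22040961-22040986, minus strand: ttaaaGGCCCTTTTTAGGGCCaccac
Hist1h4j, chr13:21735432-21735457, plus strand: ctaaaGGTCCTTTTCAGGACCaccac
The form printed for Hist1h1c was shared by 18 members of the H1, H2A, H2B and H3 families, and the form of Hist1h4h by 6 members, all H4 genes. The form of Hist1h2bb occurred in 5 members and that of Hist1h4i in 2. The forms of Hist2h2ac and Hist1h4j occurred in 1 member each. In the authors' gene table the model of 17 members ended within 50 bases of the stem-loop, that of 16 ran on further, and for the remaining 14 (Hist1h2bh, which has no GENCODE transcript, among them) no stem-loop was found. The model of Hist1h1c ran on for 840 bases, that of Hist1h2be for 1789 and that of Hist3h2a for 1643, whereas the model of Hist2h2aa2 stopped after 35 bases and that of Hist1h1e after 27.

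RefSeq promoters (GRCm38.p6, from 250 bases before to 50 after the start) matched 40 members. On either strand, CCAAT occurred in 82.5% of these members' promoters (37.4% of all 32851 promoters), TATAAA in 60% (13.6%), the octamer ATTTGCAT in 22.5% (1.74%) and AAACACA, the sequence known as the H1 box, in 12.5% (7.18%). Of the E2F-type sequences, TTTCCCGC occurred in 1 member (2.5%, against 1.07% of all promoters), and TTTGGCGC in 0 (0.514% of all). The USF sequence CACGTG occurred in 0 members (7.15% of all). A match is only a run of letters. All 5 members with AAACACA were H1 genes. Hist1h1c, Hist1h1d and Hist1h1e are printed because they varied together across mice (given with the correlations). Each stretch covers the 150 bases before the RefSeq start, with the H1 box, the CCAAT box and TATAAA in capitals, on either strand.
Hist1h1c, chr13:23738657-23738806, plus strand: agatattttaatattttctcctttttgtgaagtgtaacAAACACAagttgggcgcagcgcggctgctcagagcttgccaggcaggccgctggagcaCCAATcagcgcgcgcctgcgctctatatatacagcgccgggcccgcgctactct
Hist1h1d, chr13:23554882-23555031, plus strand: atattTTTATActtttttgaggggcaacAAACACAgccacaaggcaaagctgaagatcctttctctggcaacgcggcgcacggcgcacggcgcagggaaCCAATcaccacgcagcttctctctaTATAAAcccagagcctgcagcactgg
Hist1h1e, chr13:23622559-23622708, minus strand: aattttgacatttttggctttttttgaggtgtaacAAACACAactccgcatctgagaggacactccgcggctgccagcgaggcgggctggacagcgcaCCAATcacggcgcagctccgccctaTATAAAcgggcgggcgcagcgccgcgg
In all 3 stretches AAACACA stands upstream of CCAAT.

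Histone genes took a small share of the reads, and most of that share fell on a single linker histone gene. Together the 47 members had 0.0277% of all counts in the median library (lowest 0.0129%, highest 0.115%). The median was 0.0251% in females and 0.0294% in males. Total counts were 15.1 M to 68.8 M per library, with a median of 23.99 M in band 4 and 36.72 M in bands 1 to 3. CPM averaged over 10 in 6 members, 1 to 10 in 15 and under 1 in 26. Hist1h1c held 52.3% of the members' reads and the 8 members of highest mean CPM held 89.2%.

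Among H1 genes, Hist1h1c ranged over 46.1, 142.8 and 414.3 CPM (lowest, median, highest) in females, against 66.7, 163.8 and 638 CPM in males. Hist1h1e, another somatic linker histone gene, had 0.341, 1.22 and 9.6 CPM in females, against 0.386, 1.86 and 36.4 CPM in males. Hist1h1d, also a somatic H1 gene, had 0.172, 1.15 and 6.89 CPM in females, against 0.169, 1.27 and 10.8 CPM in males. The sexes overlapped widely for all 3. Hist1h1t, the testis-type H1 gene, averaged 0.0777 CPM over all libraries and did not pass the filter, nor did Hist1h1a (0.130 CPM) and Hist1h1b (0.0614 CPM).

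Among core histone genes, Hist1h2bc, an H2B gene, had 11.2, 29.8 and 110 CPM in females, against 12.99, 33.03 and 132.6 CPM in males. Hist1h2be, also an H2B gene, had 7.19, 16.97 and 52.4 CPM in females, against 6.63, 20.1 and 82.1 CPM in males. Hist3h2a, an H2A gene outside the large clusters, had 8.94, 15.4 and 30.3 CPM in females, against 7.96, 16.8 and 35.3 CPM in males. Levels of these 3 differed several-fold between mice of the same sex. Hist2h2be, an H2B gene, was among the steadiest, at 4.88, 9.96 and 17.6 CPM in females, against 4.25, 10.8 and 21.5 CPM in males. Hist2h2bb, an H2B gene with 2 rows, averaged 6.87 ± 4.23 CPM in the row that GENCODE calls Gm42743. The row that GENCODE calls Hist2h2bb averaged 1.45 ± 0.809 CPM. Hist1h4i, an H4 gene, averaged 5.95 ± 4.20 CPM (SD over all mice in each case). No H3 gene averaged above 3.04 CPM, the value of Hist2h3c2.

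Hist2h2aa2, an H2A gene, had the widest spread. It averaged 18.7 ± 30.2 CPM (SD over all mice), but in females the median was 0.228 and the highest value 105.2 CPM, against 0.843 and 109.1 CPM in males. In 41.3% of the libraries it had less than 0.5 of a count, and 0 of these libraries were in band 4. Per kilobase of GENCODE exon, Hist1h1c had 110 CPM, Hist1h2bc 36.1, Hist2h2aa2 35.4, Hist1h4i 8.18, Hist3h2a 7.73, Hist1h2be 4.62 and Hist2h2be 4.04. The authors' gene models matched GENCODE in start and end for 28 members. Over the authors' span in place of GENCODE exons, Hist1h1e was at 3.55 against 1.38 CPM per kilobase and Hist1h1d at 2.37 against 0.238. Hist1h2bc and Hist1h2be, whose spans hold introns, were at 5.04 and 0.550.

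**Figure D1:**
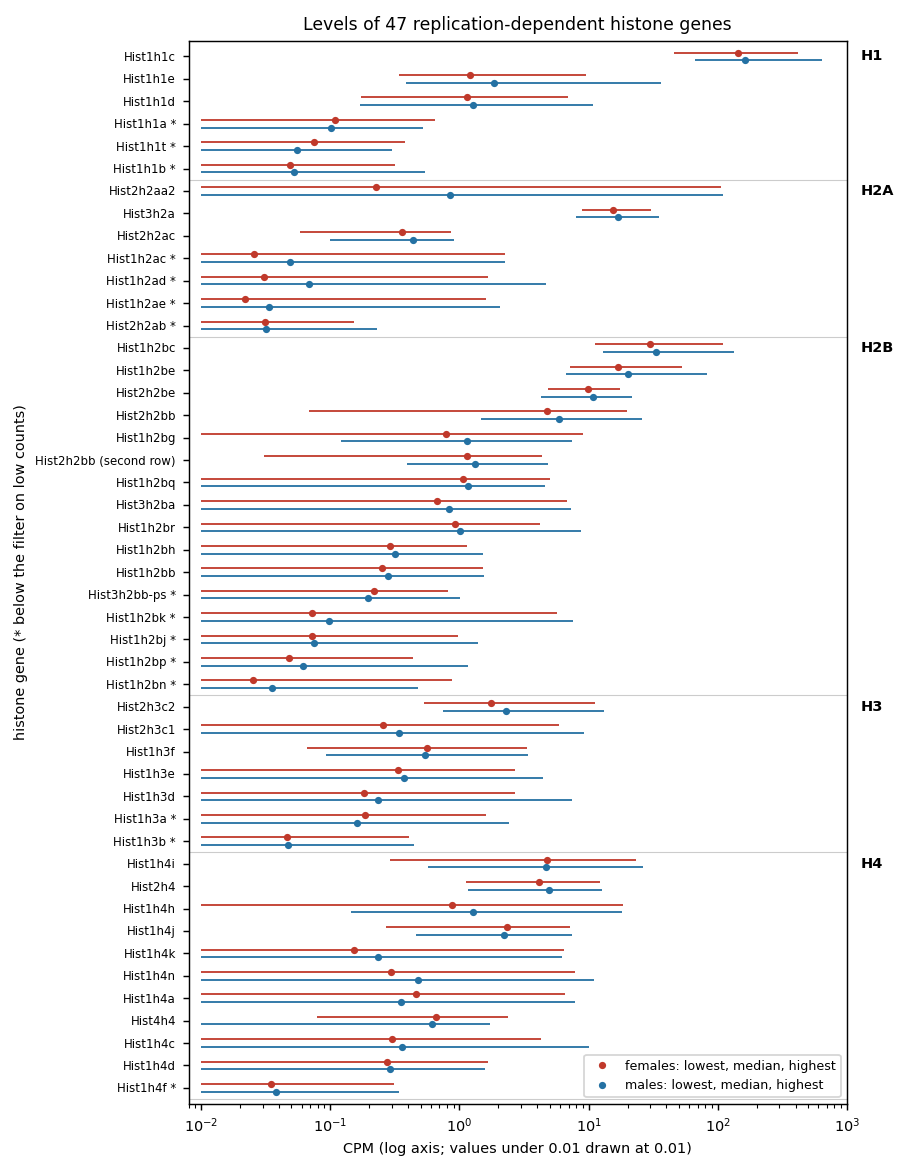
CPM of each of the 47 histone genes, by family and on a log axis, with lowest, median and highest library for females (red) and males (blue). Hist1h1c lies above all others in both sexes, while Hist2h2aa2 spans from libraries with under 0.5 of a count to 105.2 CPM in females and 109.1 CPM in males.

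Histone counts were mostly fractional. Of the members' values 19.1% were whole numbers (tolerance 0), against 67.7% of all values in the table. In 33 of 47 members (70.2%), fewer than 10% of the libraries had a whole count, against 23.9% of all genes. Hist2h2be and Hist2h4 (an H4 gene) and the H1 genes Hist1h1a, Hist1h1t and Hist1h1b were whole in every library, and 18 members were whole in none. Hist2h2be shared none of its 50-base words with any other GENCODE gene (0 of its words), and Hist2h4 shared 1.01%. Hist2h2aa2 and Hist2h3c1, an H3 gene, shared all of theirs (100%) with Gm20634, a processed transcript at chr3:96245554-96248509 on the plus strand. Gm20634 overlaps Hist2h3c1 and Hist2h2aa1, a gene not analysed here. Hist1h2bq and Hist1h2br, H2B genes, shared 97.3% and 88.5% of their words, mostly with each other. Hist3h2a shared 31.5% with the overlapping Trim17, and Hist1h1e shared 23.8% with Hist1h2be. Hist2h2bb stood in 2 rows, of which ENSMUSG00000050936 is called Gm42743 in GENCODE and overlaps the other. Where the row is not named, values given for Hist2h2bb are those of the Gm42743 row. The division of reads within each of these groups is uncertain. The smallest values above 0 were many orders below 1 count, so a value above 0 was not read as detection.

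Across mice, the members were set apart most by number band. In band 4 the share of all counts on histone genes had a median of 0.0518% (0.0332% to 0.115%), against medians of 0.0238% to 0.0249% in the other bands. Members higher in band 4 than in bands 1 to 3 numbered 23 of 32 tested (background over all genes 41.2%), and 5 were lower (background 42.3%, and 83.6% for both directions), by edgeR's quasi-likelihood test with sex in the model and Benjamini-Hochberg adjustment over all genes. The median log2 difference was 1.32 over the members and -0.01 over all genes. Several of the higher members had a median under the filter's limit of 0.287 CPM in bands 1 to 3. They may have passed the filter only with band 4 counted, so the number of higher members is not independent of that filter. By contrast 1 member differed between bands 2 and 1 (background 27.3%) and 2 between bands 3 and 1 (background 23.4%).

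Hist2h2aa2 gave non-overlapping values, 46.6, 68.8 and 109.1 CPM (lowest, median, highest) in band 4, against a highest value of 20.9 CPM in bands 1 to 3. It is among the members counted as higher, but it passed the filter only with band 4 counted. Its test between the bands is thus not independent of that filter. Its fitted log2 difference was 5.38 ± 0.252 (SE, edgeR adjusted p = 3.48e-66), and -2.27 ± 0.501 with the GC slope (each library's slope of log2 CPM on the GC content of the genes) as a covariate. Hist2h3c1 ran the other way, with at most 0.0150 CPM and under 0.5 of a count in each of the 94 band 4 libraries, against a median of 1.29 and a highest value of 9.27 CPM in bands 1 to 3. Its ranges overlapped at the low end, since 65 libraries of bands 1 to 3 were also under 0.5 of a count. The sum of Hist2h2aa2, Hist2h3c1 and Gm20634, which does not depend on how reads were divided among these rows, had a median of 94.9 CPM (67.4 to 146.05) in band 4, against 23.7 CPM (11.8 to 63.5) in bands 1 to 3. Those sums did not overlap. Hist2h3c2 and Hist2h2ac, which also share words with Gm20634 (63.5% and 28.9% of theirs), are outside the sum. Hist2h2aa1, which overlaps Gm20634, is not among the members and is outside the sum too. A division of reads with any of these genes is thus not covered by the sum.

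The H4 genes were higher in band 4 in 8 of 10 cases, with Hist1h4k at 3.25 ± 0.194 and Hist1h4h at 2.96 ± 0.118 on the log2 scale (SE). With the GC slope as a covariate these turned to -3.48 ± 0.444 and -1.19 ± 0.259. Hist1h4h had 3.91, 8.44 and 18.5 CPM in band 4, against a median of 0.653 and a highest value of 7.32 CPM in bands 1 to 3. The H3 gene Hist1h3d was higher by 3.01 ± 0.119 (-0.0055 with the GC slope). Hist1h4k and Hist1h3d may have passed the filter only with band 4 counted. All 3 tested H1 genes were higher. Hist1h1c had 107.8, 246.2 and 638 CPM in band 4, against 46.1, 137.5 and 358.8 CPM in bands 1 to 3 (log2 0.92 ± 0.0536, and 0.30 ± 0.163 with the GC slope, not past the threshold). Hist1h2bc had 42.7, 79.5 and 132.6 CPM in band 4, against 11.2, 26.5 and 68.3 CPM in bands 1 to 3 (log2 1.49 ± 0.0501, and -0.17 ± 0.123 with the GC slope). The ranges overlapped for Hist1h4h, Hist1h1c and Hist1h2bc. Lower in band 4 besides Hist2h3c1 were Hist2h2ac (an H2A gene, -0.41), Hist1h2bq (-0.36), Hist2h2be (-0.26) and Hist1h2be (-0.19).

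By gene model, a grouping made after the values were seen, all 9 tested members whose model ended at the stem-loop were higher in band 4 (median 2.13). Of the 14 whose model ran on, 9 were higher and 3 lower (median 0.90), and of the 9 without a stem-loop 5 were higher and 2 lower (median 0.30). The difference between these groups was not tested. Of the 9, Hist2h2aa2 passed the filter only with band 4 counted. Hist1h2bb, Hist1h4c, Hist1h4d and Hist1h4n, also among them, may have done so too. Over all genes the band 4 difference followed the GC content of the transcript (Spearman's rho 0.755 across 16867 genes, which are not independent replicates), and over 31 members rho was 0.477. The members' median GC content was 51.3%, against 49.3% over all genes. Single-exon genes other than the members had a median band 4 difference of -0.15 on the log2 scale. Each library's slope of log2 CPM on GC, fitted without the members, had a median of 0.0506 (0.0132 to 0.0730) in band 4, against medians of -0.0203, -0.0173 and -0.0176 and highest values of 0.00978, 0.00896 and 0.0171 in bands 1, 2 and 3. The slope thus nearly separated band 4 from the others, so that slope and band can hardly be told apart, and the standard errors grew. With that slope as a covariate, an alternative added after the data were seen, 3 members (Hist1h1d, Hist1h1e and Hist2h3c2) were higher and 9 lower in band 4 (median -0.21), against 16.1% and 14.8% of all genes. In the authors' variance-stabilised values 0 of 32 members and 0 of all 16927 genes differed between band 4 and the other bands (limma). In the same values 4124 genes were higher and 4405 lower in females. Since no gene at all was called for band there, these values cannot test the band difference of the members. The processing notes do not say whether band was removed from them. Markers of acinar cells, which make digestive enzymes, also moved, with 8 of 10 lower and 1 higher in band 4 and a summed level of 105.2 to 18163 CPM in band 4 and 107.9 to 54715 CPM in bands 1 to 3, no marker being at a median of 0. All 5 red blood cell markers were higher in band 4, with a summed level of 12.3 to 140 CPM in band 4 and 2.79 to 232.8 CPM in bands 1 to 3. With scores of 6 cell types (acinar, duct, endothelial, stellate, macrophage and lymphocyte) as covariates, 23 members were higher and 5 lower (39.7% and 42.3% of all genes). The part of red blood cell RNA in the difference was not tested.

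**Figure D2:**
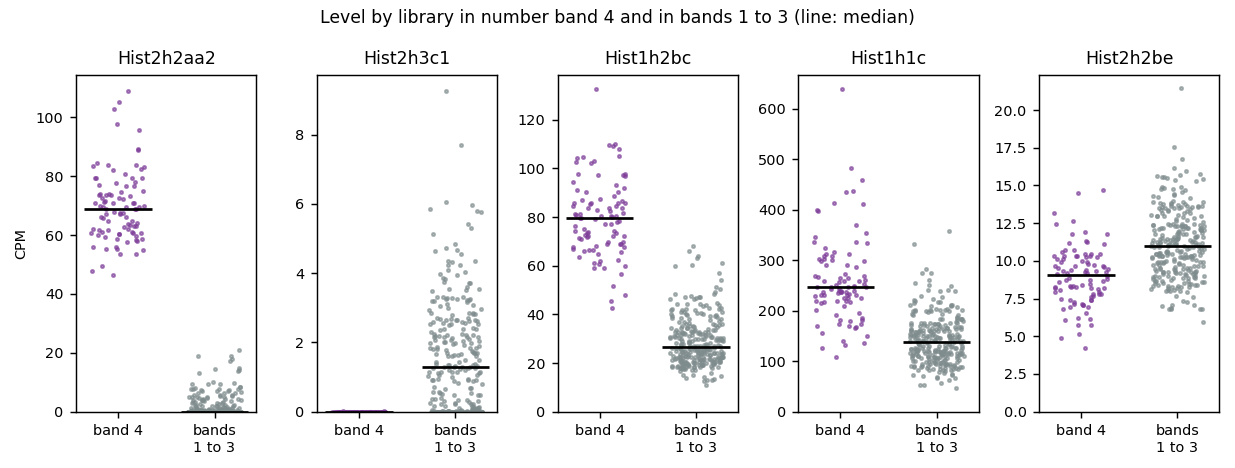
CPM in every library of band 4 (94 libraries, purple) and bands 1 to 3 (grey) for 5 histone genes, with the median as a line. Hist2h2aa2 separates the bands, Hist2h3c1 lies at the bottom in band 4 together with 65 libraries of the other bands, Hist1h2bc and Hist1h1c are shifted up in band 4 with overlap, and Hist2h2be has a median of 9.09 CPM in band 4 against 11.0 CPM in the others.

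Part of the histone genes had lower levels in females than in males. With band as a covariate, 16 of 32 members were lower in females (background 27.6%) and 1 was higher (background 23%). The median log2 difference, female minus male, was -0.24 over the members and -0.01 over all genes. All 3 H1 genes, 2 of 3 H2A, 8 of 11 H2B and 2 of 5 H3 genes were lower, whereas of the 10 H4 genes 1 was lower and 1 higher.

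The largest difference was that of Hist1h1e at -0.65 ± 0.079 (SE, edgeR adjusted p = 1.1e-13), a level 1.57-fold higher in males. It was negative in each band, at -0.78, -0.75, -0.28 and -0.82 in bands 1 to 4, and did not pass in band 3 (adjusted p = 0.194). Next came Hist1h3d (-0.44), the H2B genes Hist1h2bg (-0.37) and Hist3h2ba (-0.36), Hist1h2be and Hist2h4 (-0.33 each) and Hist2h3c2 (-0.34). Hist1h1c, with the most reads, averaged 1.18-fold higher in males (-0.235 ± 0.0486, adjusted p = 1.09e-05). Hist1h4a, an H4 gene, was the exception, at 0.38 ± 0.116 (adjusted p = 0.00319), a 1.30-fold higher level in females, its median being 0.463 CPM in females against 0.353 CPM in males. Hist2h2aa2 did not pass (-0.37, adjusted p = 0.192).

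The sign was negative in all 4 bands for 19 of 32 members and positive in all 4 for 2, and over all genes 48.98% had 1 sign in all bands. For the interaction of sex with band 0 members were called (background 1.12%), with 3 at an unadjusted p under 0.05 and a smallest edgeR adjusted p of 0.167 for Hist2h2be. With Mki67 as a covariate 15 members were lower in females (background 22%) and 1 higher (background 18.1%, and 40.2% for both directions), and the value of Hist1h1e was -0.38 and that of Hist1h1c -0.13. All 9 endothelial markers were also lower in females, with a summed level of 346.1 to 768 CPM in females and 373.4 to 990 CPM in males and none at a median of 0. With scores of 6 cell types as covariates, endothelial cells included, 8 members were lower in females (15.7% of all genes). Hist1h1e (-0.29), Hist2h4 (-0.33) and Hist2h2be (-0.17) passed there, and Hist1h1c did not (-0.09, adjusted p = 0.208). Of the endocrine lists, which those scores leave out, all 6 alpha cell and all 5 delta and PP cell markers were higher and 7 of 10 beta cell markers lower in females. The part of endocrine cell make-up in the sex difference was not tested. Fewer cells of a type and less RNA per cell cannot be told apart in these bulk samples.

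**Figure D3:**
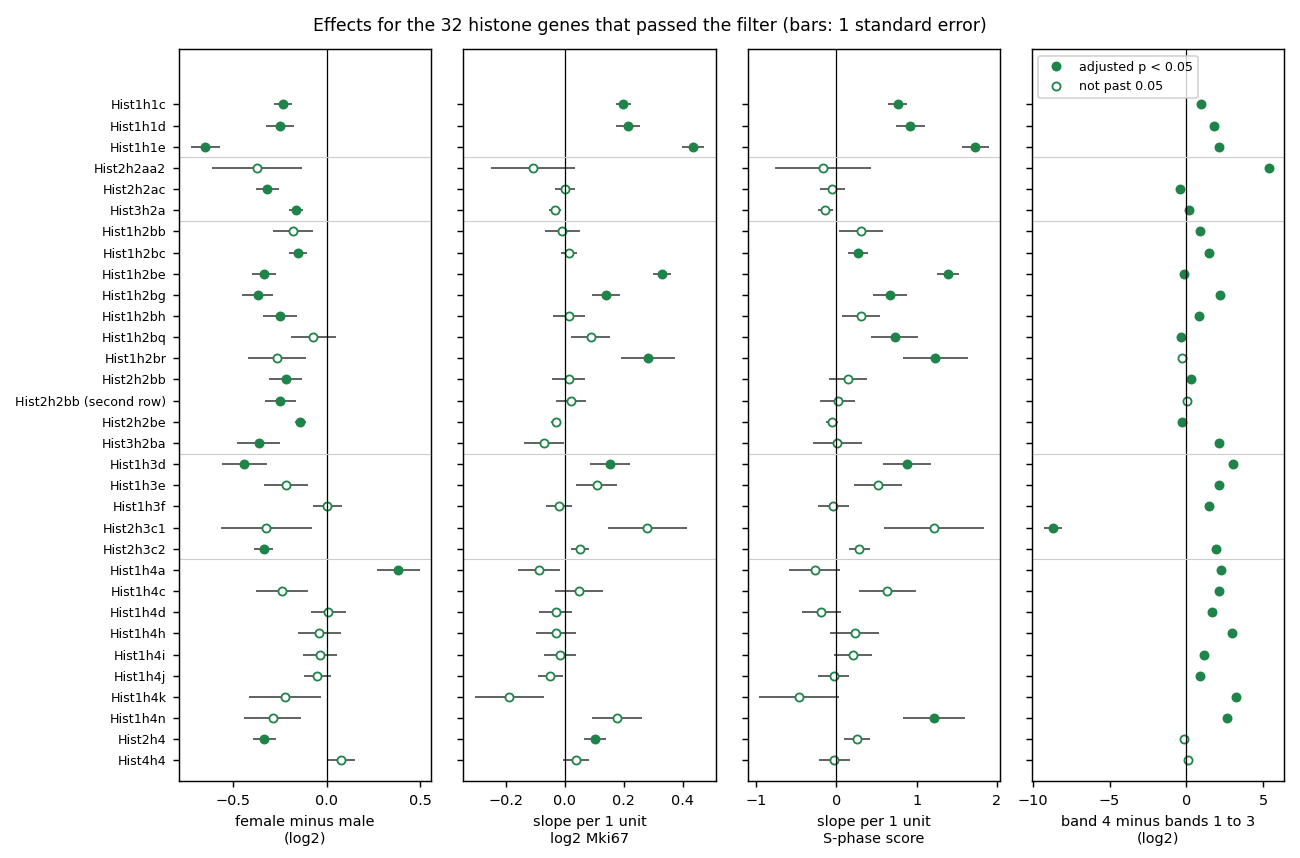
Effect (point) with 1 standard error (bar) for the 32 tested histone genes, grouped by family from H1 (top) to H4: sex difference, slope on Mki67, slope on the S-phase score and band 4 difference, all on the log2 scale, with filled points past the threshold. Hist1h1e lies farthest from 0 in the first 3 panels among filled points, and the fitted band 4 value of Hist2h3c1 rests on libraries with under 0.5 of a count, so its size is not interpretable.

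Mki67 encodes a nuclear protein of dividing cells and served as the measure of cell division. It had 1.09, 3.32 and 16.4 CPM in females, against 0.941, 3.93 and 44.2 CPM in males. With sex and band in the model, 8 of 32 histone genes increased with Mki67 (background 25.8%) and 0 decreased (background 28.4%, and 54.3% for both directions). The share that increased was thus near that of all genes. The median slope was 0.02 over the members and -0.00368 over all genes, in log2 units per 2-fold step of Mki67.

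The 3 H1 genes with tested levels were all among the 8. Hist1h1e rose by 0.44 ± 0.037 per unit (SE, adjusted p = 1.58e-25), a 1.35-fold level for each doubling of Mki67. Hist1h2be rose by 0.33 ± 0.0306 (adjusted p = 7.79e-22), Hist1h2br by 0.28 ± 0.0913, Hist1h1d by 0.21 ± 0.0417 and Hist1h1c by 0.20 ± 0.026. Hist1h1e and Hist1h2be share part of their sequence, and how far their slopes rest on the same reads was not tested. Smaller slopes were those of Hist1h3d (0.15), Hist1h2bg (0.14) and Hist2h4 (0.10). Of the other members with many reads, Hist1h2bc (0.01, adjusted p = 0.693), Hist2h2be (-0.03, 0.138), Hist3h2a (-0.03, 0.196), Hist1h4i (-0.02, 0.814), Hist2h2bb (0.01, 0.855) and Hist2h2aa2 (-0.11, 0.545) did not pass. The value of Hist2h2bb is that of the row called Gm42743 in GENCODE. In band 4 alone, where none of the libraries had under 0.5 of a count of Hist2h2aa2, its slope was positive and passed (0.11, adjusted p = 0.00167), as did that on the S-phase score (0.45, adjusted p = 0.00106). In that band 9 members increased with Mki67 and 11 with the S-phase score (15.2% and 14.5% of all genes), Hist1h4c, an H4 gene, among them (0.41, adjusted p = 0.00158, on Mki67). Of the 10 H4 genes 1 passed.

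As Pearson correlations with sex and band removed, Hist1h1e had r = 0.458 and Spearman's rho = 0.379 with Mki67 over all libraries, Hist1h2be 0.443 and 0.376, and Hist1h1c 0.344 and 0.299. The r of Hist1h1e was positive in all 8 combinations of sex and band (0.0948 to 0.749). Over the members the median r was 0.0305, against -0.00956 over all genes with 5% of them above 0.328. Much of the range of Mki67 came from 21 libraries, 3 of females and 18 of males, that lay more than 1.5 log2 units above 0 with sex and band removed. Without them, an alternative added after the data were seen, 4 members increased (background then 13.05%), namely Hist1h1e (0.31), Hist1h2be (0.20), Hist1h1c (0.15) and Hist2h4 (0.14). The r of Hist1h1e was then 0.296. In females alone 1 member passed (4.15% of all genes increased), Hist1h1e (0.26 ± 0.0802, adjusted p = 0.0255), and in males alone 6 (25.6%), with Hist1h1e at 0.48 ± 0.042. For the interaction of sex with Mki67 1 member was called, Hist1h2be, with a value of -0.22 (female minus male slope) (background 6.94%, of which 2.89% positive and 4.05% negative). The endothelial score went with Mki67 (r = 0.380), and 7 of 9 endothelial and 8 of 9 stellate cell markers increased with it. With 6 cell type scores as covariates 6 members increased (15.6% of all genes), with Hist1h1e at 0.30 and Hist1h2be at 0.26.

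**Figure D4:**
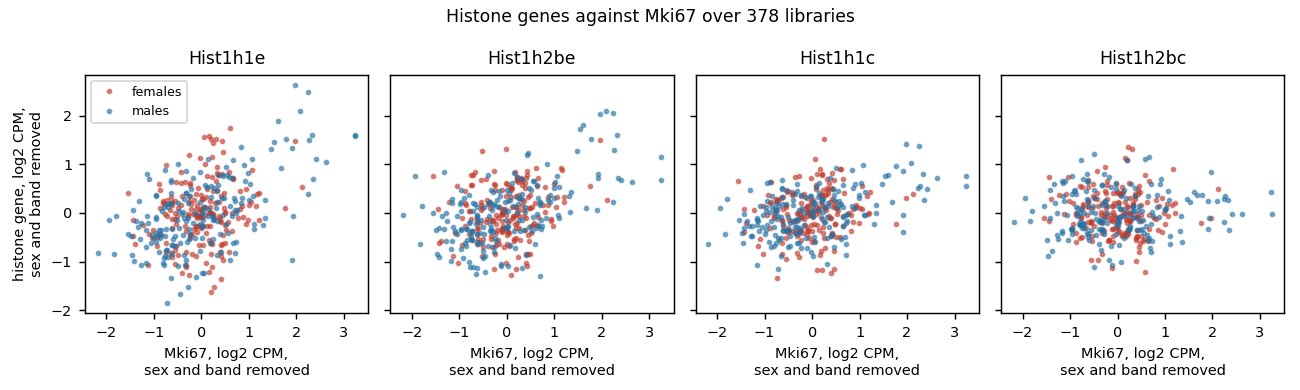
Log2 CPM of Hist1h1e, Hist1h2be, Hist1h1c and Hist1h2bc against that of Mki67 over all libraries, with sex and band removed and females in red, males in blue. The first 3 rise with Mki67 (r = 0.458, 0.443 and 0.344), also through the libraries farthest right, most of them of males, whereas Hist1h2bc shows no slope past the threshold.

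The S-phase score, the mean log2 CPM of 37 DNA replication genes, is a broader measure. With sex and band in the model 10 of 32 increased with it (background 26.2%) and 0 decreased (background 27.4%, and 53.6% for both directions). Hist1h1e had a slope of 1.73 ± 0.164 (adjusted p = 2.76e-21), Hist1h2be of 1.39 ± 0.137, Hist1h2br of 1.23 ± 0.407 and Hist1h4n, an H4 gene, of 1.21 ± 0.389 log2 units per unit of score. The others were Hist1h1d (0.92), Hist1h3d (0.88), Hist1h1c (0.76), Hist1h2bq (0.73), Hist1h2bg (0.67) and Hist1h2bc (0.27). The score and Mki67 share the same libraries and went together (r = 0.818), so both relations rest on the same variation.

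Over all genes 25.8% increased and 28.4% decreased with Mki67, which is the background for each list here. Of the 37 tested S-phase genes 24 increased with Mki67 and 1, the sliding clamp gene Pcna, decreased (-0.07). The checkpoint mediator gene Clspn (0.97), Dtl, a ubiquitin ligase substrate receptor gene (0.86), and Uhrf1, which keeps DNA methylation through replication (0.71), had the smallest adjusted p. All 24 tested mitosis genes increased, led by Top2a (1.01), the DNA topoisomerase of dividing cells. Histone mRNA processing genes went mostly the other way, with 2 of 18 increasing and 12 decreasing. Among them were Cstf2 (-0.09), Coil (-0.11), which encodes coilin, and Slbp (-0.05), the stem-loop binding protein gene. Of 12 histone chaperone genes 3 increased, a share near that of all genes, among them Asf1b (0.46) and Chaf1a (0.36), which are also in the S-phase list. The 7 that decreased included Nasp (-0.10) and Hira (-0.07). Of 11 replication-independent histone genes 5 increased, with Cenpa, the centromeric H3 variant gene, at 0.54 and H1f0, the linker histone gene of resting cells, at 0.16, and 3 decreased. Whether these lists differ from the replication-dependent genes was not tested.

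Variation between mice left after removing sex and band was wide. Its SD had a median of 0.779 log2 units over the 32 members (0.277 for Hist2h2be to 2.42 for Hist2h2aa2), against 0.335 over all genes tested. Among the 496 pairs of members the median r was 0.161 (-0.694 to 0.874), and 433 pairs were positive. The pairs share libraries, depth and base composition, so these values are a description.

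Some members varied together. Hist1h1c, Hist1h1e, Hist1h1d and Hist1h2be went together, with r = 0.793 for Hist1h1c with Hist1h1e, 0.739 for Hist1h1c with Hist1h1d and 0.739 for Hist1h1e with Hist1h2be. In GENCODE, Hist1h1e (chr13:23620629-23622558) overlaps the first bases of Hist1h2be (chr13:23583670-23621124) on the same strand, although the authors' models of both do not overlap. The sum of both had r = 0.464 with Mki67. Another group held Hist1h2bc, Hist1h4h, Hist1h4k and Hist2h2aa2, with r = 0.832 for Hist1h2bc with Hist1h4h and 0.784 for Hist1h4h with Hist2h2aa2. Members of that group followed the GC slope of the library (r = 0.662 for Hist2h2aa2, 0.647 for Hist1h4h, 0.627 for Hist1h4k and 0.585 for Hist1h2bc) and had an r of -0.0723 to 0.0309 with Mki67. Hist1h1e had 0.301 and Hist1h2be -0.0183 with the GC slope, which itself had r = -0.0416 with Mki67. Hist2h3c1 was negative with Hist2h2aa2 (-0.694), with which it shares sequence through Gm20634. The strongest pair was that of both Hist2h2bb rows (0.874), which overlap. The 72 pairs within 50 kb had a median r of 0.194, pairs farther apart on the same chromosome 0.277 and pairs on different chromosomes 0.103.

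**Figure D5:**
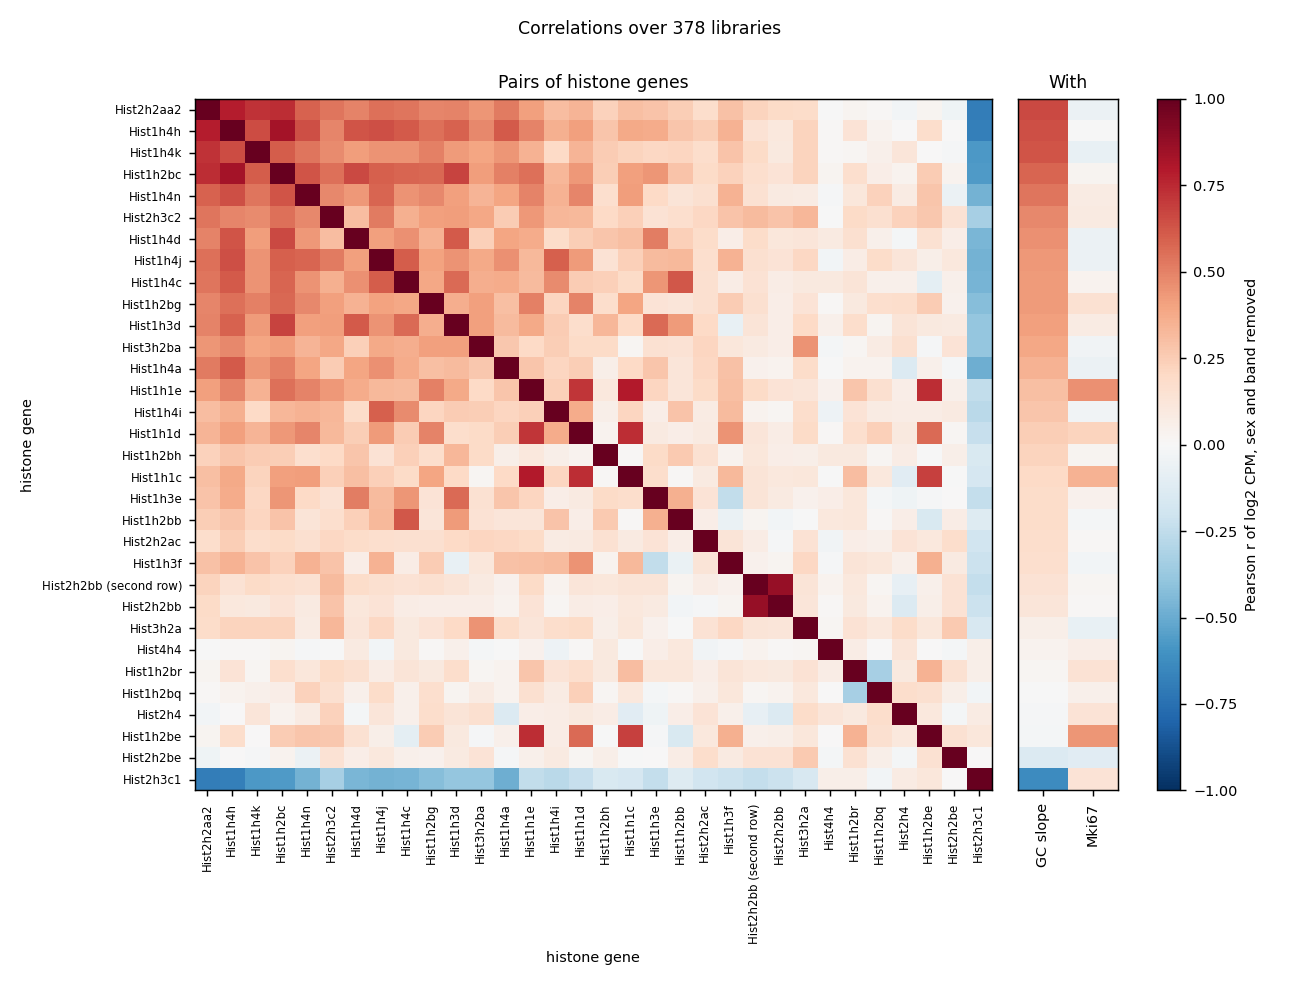
Pearson r between each pair of the 32 tested histone genes over all libraries (left), with sex and band removed, and of each gene with the library's GC slope and with Mki67 (right strips), ordered by the r with the GC slope. A red block at the top left joins Hist2h2aa2, Hist1h4h, Hist1h4k and Hist1h2bc, Hist1h1c, Hist1h1d, Hist1h1e and Hist1h2be are red with each other, and Hist2h3c1 is blue with most.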

How the data were processed

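Islet poly(A) RNA was sequenced from 378 mice, each library being 1 mouse. The authors' deposited table holds expected counts per gene, which are fractional. The submitters' processing notes name GRCm38 and DESeq2, without roles or versions. The aligner, counter and annotation were not given in the sources used here. Variance-stabilised values, also deposited, are on a log2-like scale. Expected counts were rounded to whole numbers for edgeR 4.0.16 in R 4.3.3 (TMM, quasi-likelihood F test, Benjamini-Hochberg adjustment over all genes tested, threshold 0.05). A gene entered when its CPM exceeded 0.287 in at least 134.6 libraries (count minimum 10). The 94 band 4 libraries alone could thus not bring a gene in, but they could tip the balance. Hist2h2aa2 had under 0.5 of a count in 156 of the 284 libraries of bands 1 to 3, so it passed only with band 4 counted. Members with a median under the limit of 0.287 CPM in bands 1 to 3 may have done so too. Besides Hist2h2aa2 these were Hist1h4k (0.0904), Hist1h3d (0.136), Hist1h4d (0.205), Hist1h2bb (0.220), Hist1h4c (0.236), Hist1h4n (0.238), Hist1h2bh (0.253), Hist1h3e (0.277) and Hist1h4a (0.2869). All of them were called higher in band 4. Models held sex and band, and Mki67 or the S-phase score (log2 CPM, prior count 2) where stated. The standard error (SE) given with an effect is its absolute size divided by the square root of its F value. It is thus approximate. CPM in the text is over all deposited counts. A library's floor of 3 counts was 0.198 CPM in the shallowest library. Counts were also simulated for the 16927 genes, without band effects, and changes were put into randomly drawn genes. On these, fitted with band, sex and Mki67 in 1 model, the test for sex found 90% of 1.25-fold and 99% of 1.5-fold changes. That for Mki67 found 87% of slopes of 0.2 and 99% of slopes of 0.4. The sex differences of the members came from a model without Mki67 unless stated. The members vary more than most genes (median SD 0.779 against 0.335 log2 units), so these shares may be too high for them. A member not called is not shown to be unchanged.

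Members and lists were chosen with earlier results of these data known. The text names the 8 members of highest mean CPM, the 4 called members of largest effect in each direction of each comparison, Hist2h2aa2, members called in an interaction, Mki67, and in each other list up to 4 genes of smallest adjusted p. Other genes named were chosen after their values were seen. Alternatives were RLE size factors, no filter, limma-voom 3.58.1, DESeq2 1.42.0, the variance-stabilised values, cell type scores, single bands and sexes. Sequences came from GENCODE M21 and RefSeq, and tables were handled in Python 3.11.15 with pandas 2.3.3, NumPy 2.4.6 and SciPy 1.17.1.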

Additional observations from a re-analysis of the deposited data

Results flagged for a closer look

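The slope of Hist1h2be on Mki67 differed between the sexes. It was 0.17 ± 0.0611 in females (SE, edgeR adjusted p = 0.0597) and 0.38 ± 0.0361 in males (adjusted p = 6.53e-19), in log2 units per 2-fold step of Mki67. The interaction of sex with Mki67, fitted over all libraries with band in the model, was -0.22 ± 0.0712 (edgeR adjusted p = 0.0359). Of the 32 histone genes tested it was the single one called, against 6.94% of all genes, and 3 were at an unadjusted p under 0.05. Mki67 reached 16.4 CPM in females and 44.2 CPM in males, so the male slope rests on a wider range.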

How the results depend on the processing

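Counts of members moved by over 1.5 times in these cases. The share of all genes called moved too, so a changed count alone is not read as a change in the members. For Mki67, 25.8% of all genes increased over all libraries, 4.15% in females, 15.2% in band 4 alone and 13.05% without the 21 libraries. For sex, 15.7% of all genes were lower with the cell type scores, against 27.6% without. Shares for the other settings are not given here. For sex, lower members numbered 8 with 6 cell type scores and 5, 6, 2 and 9 in bands 1, 2, 3 and 4 alone, where 0 were higher. For band 4, 35 of all 47 members were higher with no filter, and 3 were lower in males alone. In the variance-stabilised values 0 were higher and 0 lower, as over all genes, so these values cannot test that difference. With the GC slope (added after the data were seen) 3 were higher and 9 lower (16.1% and 14.8% of all genes). For Mki67, positive members numbered 18 (and 1 negative) with no band term, 4, 3 and 2 in bands 1, 2 and 3 alone (9 in band 4, Hist2h2aa2 and Hist1h4c among them), 4 in bands 1 to 3, 1 in females and 4 without the 21 libraries of high Mki67 (also added). For the S-phase score they numbered 16 with no filter, 5 with cell type scores, 6 (and 2 negative) with no band term, 4, 1 and 2 in bands 1, 2 and 3 alone, 5 in bands 1 to 3 and 0 in females, and 1 was negative in the variance-stabilised values and with Rrm2 in place of the score. With the GC slope the band 4 value turned for Hist1h2bb (-0.40), Hist1h2bc (-0.17), Hist1h2bh (-0.21), Hist1h3d (-0.0055), Hist1h4a (-0.21), Hist1h4c (-1.76), Hist1h4d (-0.87), Hist1h4h (-1.19), Hist1h4i (-0.66), Hist1h4j (-1.10), Hist1h4k (-3.48), Hist1h4n (-2.12), Hist2h2aa2 (-2.27), Hist2h2bb (-0.29), Hist2h3c1 (0.56), Hist3h2a (-0.0094) and Hist3h2ba (-0.34). In band 3 alone the sex difference turned for both Hist2h2bb rows (0.063 and 0.033). The Mki67 slope turned for Hist1h2br in females (-0.016) and Hist1h3d in band 1 (-0.16). The S-phase slope turned with no band term for Hist1h2bc (-0.11) and Hist1h2bg (-0.010), in band 1 for Hist1h2bq (-1.04) and Hist1h3d (-0.35), in band 2 for Hist1h2br (-0.025) and in band 3 for Hist1h2bc (-0.066) and Hist1h3d (-0.059). The cause was not tested. No paired analysis was possible because each mouse number belongs to 1 mouse. Fractional division of reads among near-identical genes and the depth of band 4 limit members under 1 CPM.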

Other observations

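The 15 histone genes that did not pass the filter averaged 0.0418 to 0.313 CPM. Fitted with no filter, 0 were higher and 5 lower in females, against 13.2% and 9.21% of all 5253 genes below the filter. In band 4, 12 were higher (32.8% of those genes). With Mki67 and with the S-phase score 5 increased in each case (14.5% and 14% of those genes). Hist1h2ac, an H2A gene, had 0.348, 1.09 and 2.25 CPM in band 4 (lowest, median, highest), against at most 0.221 CPM in bands 1 to 3.

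Of the 11 genes listed as replication-independent histones, 8 were higher and 3 lower in band 4, against 41.2% and 42.3% of all genes. H1fx, a linker histone gene, differed by 5.67, H2afj by 2.86 and H2afx, the H2A variant gene of the DNA damage response, by 2.43 on the log2 scale. The band 4 difference followed GC content over all genes. With the GC slope of the libraries as a covariate 6 were higher and 0 lower, against 16.1% and 14.8% of all genes, with H1fx at 1.86, H2afj at 1.92 and H2afx at 1.35. In females 5 were lower than in males (27.6% of all genes), among them H1f0 (-0.26), Cenpa (-0.42) and H1fx (-0.58). The macroH2A gene H2afy was the 1 that was higher (0.08, against 23% of all genes). Of 18 histone mRNA processing genes 10 were higher in females and 3 lower (23% and 27.6% of all genes), with Slbp at 0.11.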
